A study of Mus musculus with 12 samples.

Results

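The genes described here are 9 transcription factors of the basic helix-loop-helix (bHLH) family, Atoh1, Neurog1, Neurog2, Neurod1, Olig1, Olig2, Hand1, Hand2 and Twist1, chosen by name out of 21883 protein-coding genes. For each gene the bases under H3K27me3 and H3K4me3 peaks were counted in a window that reached 10 kb beyond either end of the gene, in each of 8 peak lists, and the widest peak touching that window was recorded at its full width. The cells were bone marrow cells sorted as cKit+ (Lin-cKit+ in the series design) from C57BL/6 mice, 2 labelled Ints11_WT and 2 labelled Ints11_KO. The KO mice carried Mx1Cre and floxed Ints11 alleles, the WT mice were littermates whose Cre status is not given in the labels (nor is the age of any mouse), and the protocol places the sort of both 4 days after poly(I:C). Ints11 is the endonuclease subunit of the Integrator complex. The Mx1 promoter answers to interferon, which poly(I:C) induces, so Cre is not limited to cKit+ cells, and both genotypes had received the inducer. Each library is called by its genotype and label number (WT_407, WT_409, KO_399, KO_401). The numbers are read here as mice, though nothing else in the labels says that they came from separate animals, so p-values measure only the spread between these libraries.

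bHLH proteins pair through a helix-loop-helix and read the E-box, CANNTG, with a basic region. The proneural factors Atoh1, Neurog1 and Neurog2 start neurogenesis, Neurod1 drives neuronal differentiation, Olig1 and Olig2 act in oligodendrocyte and motor neuron lineages, and Hand1, Hand2 and Twist1 pattern heart, limb and mesenchyme. They bind mostly as partners of the widely expressed E proteins, which Id proteins sequester, and Notch signalling curbs the proneural members through Hes and Hey repressors. In cells of other lineages such genes are held silent by Polycomb repressive complex 2, which writes H3K27me3 over CpG-rich promoters, while H3K4me3 marks active promoters and, where it lies on H3K27me3, promoters called bivalent. Fewer marked cells and less mark per cell cannot be told apart in bulk chromatin.

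The promoters of Neurog2, Twist1 and Olig2 are shown because H3K4me3 reached the first in all 4 libraries, the second in 3 and the third in none, while H3K27me3 covered all 300 bases of each in every library. The sequences run from 250 bases before to 50 bases after the start site and were taken from RefSeq (assembly GRCm38.p6, coordinates as in mm10), at chr3:127632886-127633185, chr12:33957421-33957720 and chr16:91225300-91225599, all on the plus strand, with CpG dinucleotides in capitals.
Neurog2: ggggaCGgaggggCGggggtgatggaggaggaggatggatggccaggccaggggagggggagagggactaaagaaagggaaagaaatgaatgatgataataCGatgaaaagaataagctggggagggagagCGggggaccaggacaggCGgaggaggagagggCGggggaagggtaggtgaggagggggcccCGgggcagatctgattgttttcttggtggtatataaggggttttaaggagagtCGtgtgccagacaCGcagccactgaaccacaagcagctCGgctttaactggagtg
Twist1: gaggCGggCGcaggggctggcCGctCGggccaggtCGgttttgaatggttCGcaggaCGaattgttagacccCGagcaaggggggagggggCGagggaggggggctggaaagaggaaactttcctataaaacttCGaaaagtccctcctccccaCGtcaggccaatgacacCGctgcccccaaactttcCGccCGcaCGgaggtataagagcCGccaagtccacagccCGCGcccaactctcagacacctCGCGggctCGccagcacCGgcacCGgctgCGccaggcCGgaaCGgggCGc
Olig2: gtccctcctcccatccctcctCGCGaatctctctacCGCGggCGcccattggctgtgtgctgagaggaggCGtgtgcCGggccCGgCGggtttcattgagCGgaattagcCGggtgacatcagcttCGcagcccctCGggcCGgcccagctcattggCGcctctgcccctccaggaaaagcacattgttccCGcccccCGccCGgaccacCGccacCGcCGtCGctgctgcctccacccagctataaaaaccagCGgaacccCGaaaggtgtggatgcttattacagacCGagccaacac
Neurog2 held 10 CpG dinucleotides in these 300 bases, Twist1 27 and Olig2 25. The start site used for Neurog2, at 127633136, lies inside the gene span, which begins at 127632733. Its 300 bases thus fall within the span, whereas the other matched genes have their start site at an end of the span. A promoter was matched for 7 of the 9 genes, not for Olig1 and Hand1, and the other 4 held 20 (Atoh1), 32 (Neurog1), 26 (Neurod1) and 17 (Hand2). The median over all 32851 promoters of the table was 7 and the upper quartile 20. The E-box letters CANNTG, which read the same on both strands, were in 3 of the 7 promoters (1 match in Neurog1, 1 in Neurod1 and 2 in Hand2), against 72.3% of all promoters. TATAAA on either strand was in those of Olig2 and Twist1, against 13.6% of all. H3K27me3 covered all 300 bases of the 7 promoters in all 4 libraries. In the order WT_407, WT_409, KO_399, KO_401, which is kept wherever 4 values follow each other, H3K4me3 covered 223, 52, 300 and 47 bases of the Neurog2 promoter and 96, 0, 258 and 86 bases of the Twist1 promoter.

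The H3K27me3 lists held 11930 and 9838 peaks in WT and 6542 and 7653 in KO, and the H3K4me3 lists 25090 to 27676 peaks. Read totals are not part of the files. The background that the peak caller expected at a summit was recovered from each peak's deposited fold and p-value. Its commonest value per library was 3.09 and 3.15 reads in WT and 3.3 and 3.67 in KO for H3K27me3, and 1.93 to 2.65 for H3K4me3, and single summits had more, up to 5.03 among the members' peaks (Twist1, H3K27me3, KO_401). Every listed peak had a fold above 5, which at the commonest background needed 19.4 and 19.8 reads at an H3K27me3 summit in WT, 20.5 and 22.4 in KO, and 13.6 to 17.2 at an H3K4me3 summit. Counted in reads, this bar for H3K27me3 was thus higher in both KO lists, while the fold of 5 was common to all lists. The part of the background in the shorter KO peaks was not tested. A gene without a listed peak may carry the mark below that level. The progenitor genes fixed to check the sorted cells (Kit, Cd34, Flt3, Gata2, Tal1, Lyl1, Runx1, Meis1 and Myb) had H3K4me3 in all 4 libraries at 9 of 9, and Cd34 and Gata2 had more of it in both KO libraries. Of the 9, Kit, Lyl1, Runx1 and Myb had no H3K27me3, and Flt3, Gata2, Tal1 and Meis1 had less in both KO libraries. With 2 mice per genotype there are 6 labelings, and the smallest p that a two-sided exact permutation test allows is 0.333, so no difference between genotypes could reach significance.

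All 9 bHLH genes lay in H3K27me3 in all 4 libraries, and the covered length was shorter in KO. An H3K27me3 peak in this window was found in every library at 21.2% of protein-coding genes and in no library at 66.3%. Averaged over the 9 genes, WT had 16802 ± 28.3 bp under H3K27me3 and KO 13294 ± 1757 bp (± SD over 2 mice), which is 79.1% of WT, with 71.7% in KO_399 and 86.5% in KO_401. At 8 genes, all but Neurod1, both KO values lay under both WT values, and at no gene above them. Most other genes did the same: 71.2% of the 7373 genes with H3K27me3 in any library, and 82.7% of the 4642 with it in all 4, were lower in both KO libraries and 0% were higher. KO_399 was below KO_401 at 9 of 9 genes, and for the mean over genes the spread within KO was larger than within WT. This order was not particular to the members. The whole H3K27me3 list covered 15.2 Mb in KO_399 and 23.1 Mb in KO_401. Over all protein-coding genes, the covered length in the same window was 48.8% of WT in KO_399 and 73.0% in KO_401.

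**Figure D1:**
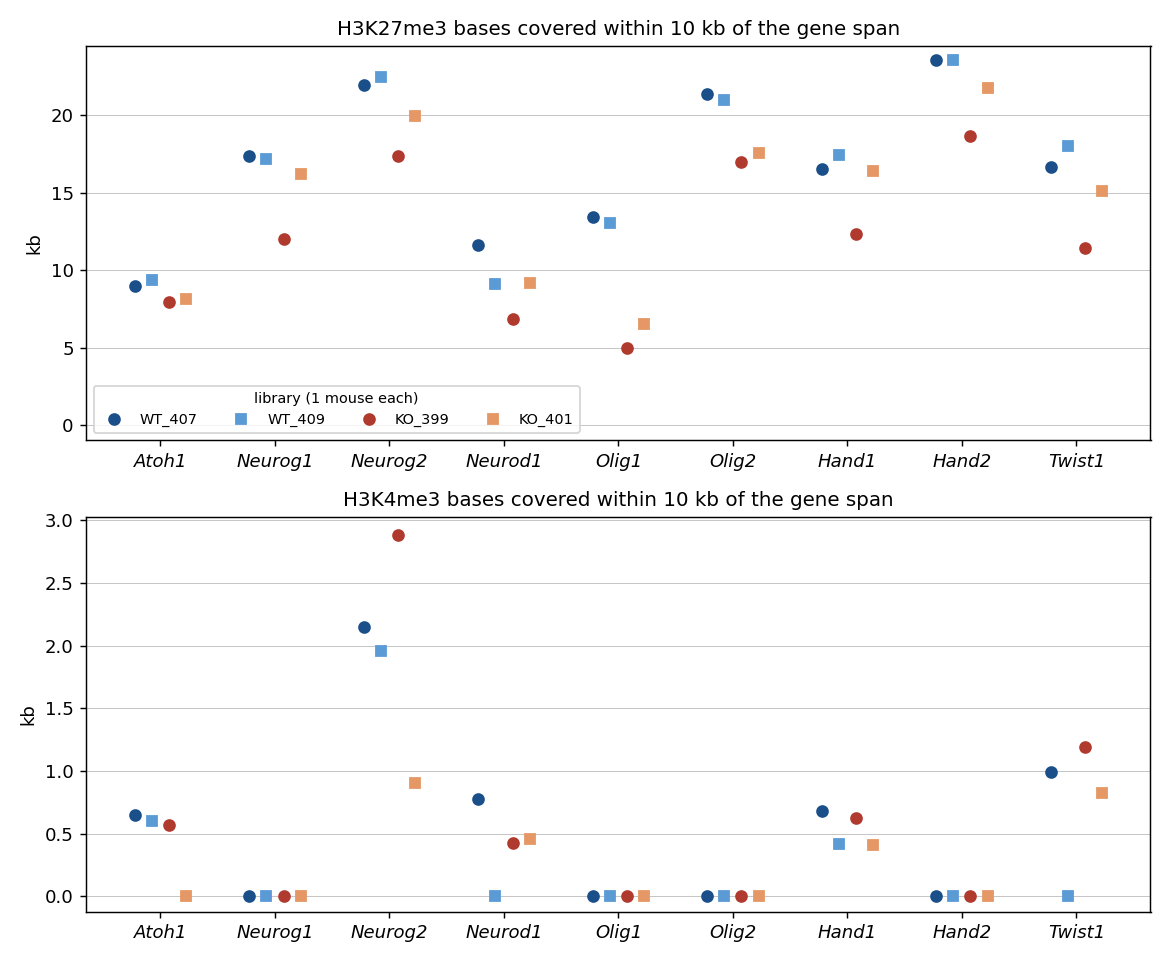
Covered length in kb (vertical axis) of H3K27me3 (top) and H3K4me3 (bottom) within 10 kb of each of the 9 bHLH genes, 1 point per library (blue WT, red and orange KO). H3K27me3 points of both KO libraries sit below both WT points at every gene but Neurod1, whereas the H3K4me3 points of the genotypes overlap at every gene with the mark but Atoh1.

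Among the proneural genes, Atoh1 (chromosome 6, 64729125 to 64731245), which specifies cerebellar granule neurons and hair cells, had the shortest domain. Its H3K27me3 covered 8990, 9345, 7930 and 8152 bp, so that KO had 87.7% of WT (exact permutation p = 0.333, n = 2 each). The groups did not overlap, and the domain kept its place, beginning 1370 to 1684 bases before the gene in every library. Neurog1 (chromosome 13, 56250478 to 56252180), a determinant of sensory neurons, had 17345 and 17189 bp in WT and 11994 and 16209 bp in KO. Both KO values were lower, KO_399 by far the more. Neurog2 (chromosome 3, 127632733 to 127635636), which drives cortical and motor neurons, had 21927 and 22486 bp in WT, 95.7% and 98.2% of its window, and 17365 and 19918 bp in KO, 75.8% and 87.0%. The WT values of Neurog2 thus touched the limit of the window, and both KO values lay below them.

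Neurod1 (chromosome 2, 79452637 to 79456636), which is also needed in pancreatic endocrine cells, was the exception, with genotypes that overlapped. H3K27me3 covered 11648, 9094, 6821 and 9179 bp (exact permutation p = 0.667, n = 2 each). WT_409 and KO_401 were nearly equal here. KO_399 was the lowest, and its peak left part of the gene bare, at 2894 of 4000 bp. Of the 9 gene bodies 7 were covered from end to end in all 4 libraries, the other incomplete one being Twist1, with 1937 of 2161 bp in KO_399.

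Olig1 and Olig2 are neighbours on chromosome 16. At Olig1 (91269769 to 91271939), which acts in oligodendrocyte maturation, H3K27me3 covered 13416 and 13014 bp in WT and 4969 and 6553 bp in KO, or 43.6% of WT, the lowest share of the 9 genes (exact permutation p = 0.333, n = 2 each). The next lowest was Twist1 at 76.6%. Olig2 (91225550 to 91228677), which specifies motor neurons and oligodendrocytes, had 21350 and 20980 bp in WT and 16985 and 17542 bp in KO, or 81.6%. For both genes the KO mice lay close together and apart from the WT mice. In the 41091 bp between the genes, part of which lies in their windows, H3K27me3 covered 64.2% and 63.9% in the WT mice and 26.1% and 29.6% in the KO mice. In the 21091 bp of it outside both windows, looked at after the values of the windows were known, it covered 53.1% and 51.3% against 12.2% and 10.4%. The size of the Olig1 difference depended on how many peaks were kept: KO minus WT was -7454 bp with all peaks, -7087 bp with a −log10 q of at least 10, -4001 bp when each list kept an equal number of its strongest peaks, and -2116 bp when each kept an equal covered length.

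The mesodermal genes also lay in long domains. Hand1 (chromosome 11, 57828713 to 57832147), a factor of heart and trophoblast, had 16538 and 17416 bp of H3K27me3 in WT and 12309 and 16412 bp in KO. KO_401 lay only just below WT_407. Hand2 (chromosome 8, 57320983 to 57324517), needed for heart ventricle, limb and branchial arch, was covered over its whole window of 23535 bp in both WT libraries, and over 18665 and 21743 bp in KO_399 and KO_401. Its window also holds the long noncoding genes Hand2os1, Gm34030 and Hdnr. Twist1 (chromosome 12, 33957671 to 33959831), a regulator of mesenchyme and cranial sutures, had 16649 and 17979 bp in WT and 11424 and 15115 bp in KO. These values separated the genotypes, but with an equal covered length kept in each library KO had 1624 bp more than WT.

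As a share of the window in WT, Hand2 came first (100%), then Neurog2, Olig2, Neurog1, Twist1, Hand1, Olig1, Neurod1 and Atoh1. The WT values of neighbours overlapped for Neurog1 (79.9% and 79.2%) and Twist1 (75.1% and 81.1%) and for Neurod1 (48.5% and 37.9%) and Atoh1 (40.6% and 42.2%), and Hand1 (70.6% and 74.3%) lay just under Twist1. In KO_399 and KO_401 the lowest share was that of Olig1, at 22.4% and 29.6%. Within each list the strongest peak of a member, by the authors' q-value, ranked high, with median percentiles of 97.4, 91.2, 83.4 and 89.2. The lowest was Atoh1 in KO_399, at the percentile 69.5.

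The covered length differed more between genotypes in wider windows. Within 2 kb of the genes, KO kept 93.5% of the WT covered length (89.6% in KO_399 and 97.4% in KO_401), within 5 kb 84.6%, within 10 kb 79.1% and within 20 kb 69.3%. Over all protein-coding genes the share hardly moved with the window, at 62.7%, 61.5%, 60.9% and 60.4%. At 4 members (Atoh1, Neurog1, Olig1 and Twist1) both KO libraries were lower within 2 kb. The share of all genes lower in both KO libraries was not counted for this window. At Olig2, Hand1 and Hand2 this narrow window was fully covered in all 4 libraries, with a difference of 0 bp. A full window has no room to show a difference, and covered length does not measure the height of the mark. The members' KO share over 10 kb, with a median of 81.7%, compares with a median of 66.7% over the 4642 genes with the mark in all 4 libraries (quartiles 55.7% and 76.9%). Those genes had a median of 10.4% of their window covered in WT, against 78.1% for the members. Of the 415 genes with at least the WT share of the lowest member (41.4%), the 9 members included, the median KO share was 74.8% and 94.2% were lower in both KO libraries.

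**Figure D2:**
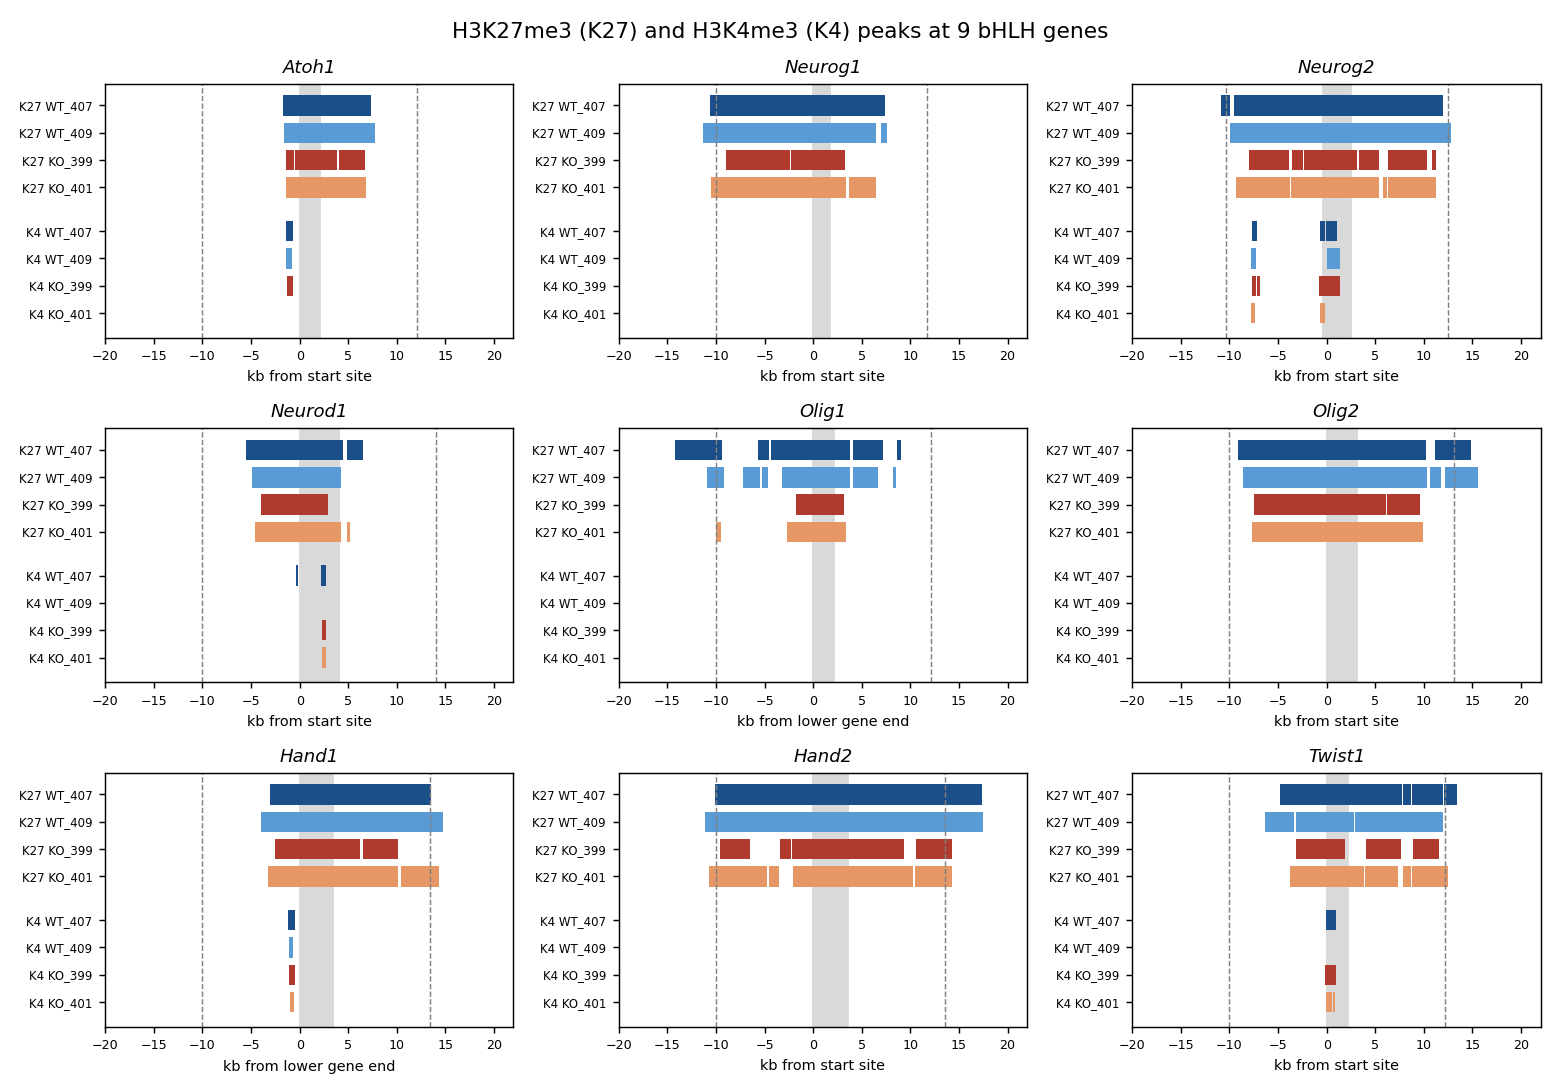
Peaks of H3K27me3 (K27, upper 4 rows) and H3K4me3 (K4, lower 4 rows) in each library at the 9 bHLH genes, by distance in kb from the start site in the direction of transcription (from the lower gene end for Olig1 and Hand1). Grey marks the gene and dashed lines the 10 kb window. H3K27me3 spans 7 of the 9 genes from end to end in every library (not Neurod1 and Twist1, where KO_399 leaves part bare), and single peaks are shorter in KO, as at Neurog2, where 1 or 2 peaks in WT stand against 5 or 6 in KO, and H3K4me3 lies as short peaks inside the H3K27me3 domains of 5 genes.

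Single H3K27me3 peaks were narrower in KO at all 9 genes. The widest peak averaged over the members was 15781 ± 101 bp for WT against 9118 ± 2345 bp for KO (± SD over 2 mice), or 57.8%. All 9 were lower in both KO libraries, against 67.2% of genes with the mark in any library and 77.1% of those with it in all 4. Wider peaks in both KO libraries were found at no member and at 0.0407% and 0.0646% of those genes. The largest difference was at Hand2, with 27453 and 28596 bp in WT and 11574 and 12343 bp in KO. Neurog2 followed, with 21519 and 22817 bp in WT and 5514 and 9085 bp in KO. At both, the KO widths were at most 44.0% of the WT mean, while the covered bases were at least 78.2% of it. These measures are unlike, since widths were taken whole and covered bases only inside the window. Hand2 filled its window in both WT libraries, so its covered bases left out what lay beyond. The smallest relative differences were at Neurod1 (82.1% of WT) and Olig2 (81.3%). In KO_401 the widest peak stood at 68.3% of WT and in KO_399 at 47.3%.

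At some members the window held more and narrower peaks in KO. Whether a domain was split there, or only dipped below the bar for a listed peak, was not tested. Neurog2 had 2 and 1 peaks in its window in WT and 6 and 5 in KO, Hand2 had 1 and 1 against 4 and 4, and Hand1 had 1 and 1 against 2 and 2. More peaks in both KO libraries were thus found at 3 of 9 members and fewer at 1 (Olig1, 5 and 7 against 1 and 2), beside 4.44% and 14.3% of all genes with the mark in all 4 libraries. Those genes had a median of 10.4% of the window covered in WT, against 78.1% for the members. Neither peak counts nor widest peaks were set beside genes covered as widely as the members. When peaks at most 1 kb apart were joined into a domain over the gene, the Hand2 domain was 44612 and 46656 bp long in WT and 12747 and 18033 bp in KO. With a gap of 3 kb it was 44612 and 46656 bp in WT, 18823 bp in KO_399 and 45225 bp in KO_401, so that KO_401 was then like WT. The Olig2 domain stayed apart under both, with 24028 and 25697 bp against 17077 and 17542 bp at 1 kb, and 39441 and 37960 bp against 17077 and 17542 bp at 3 kb. The Twist1 domain was 18211, 20860, 5096 and 16271 bp long at 1 kb, and KO_399 rose to 14747 bp at 3 kb.

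**Figure D3:**
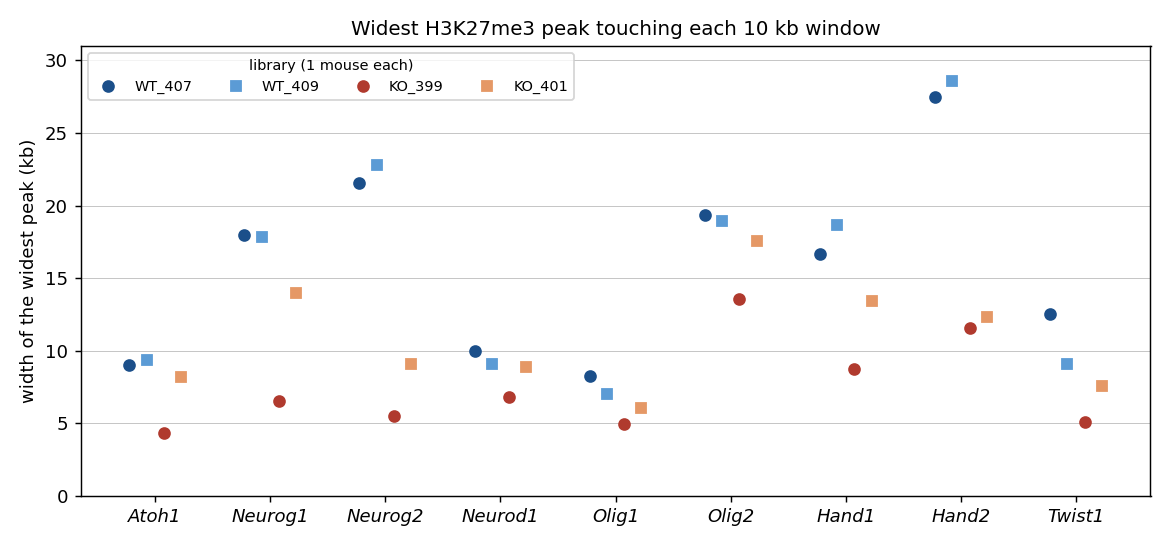
Width in kb (vertical axis) of the widest H3K27me3 peak that touches the 10 kb window of each gene, 1 point per library (blue WT, red and orange KO). Both KO points lie below both WT points at all 9 genes, and the distance is greatest at Hand2 and Neurog2.

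H3K4me3 was sparse at the same genes. It had a peak in all 4 libraries at Neurog2 and Hand1 and in no library at Neurog1, Olig1, Olig2 and Hand2, while Atoh1, Neurod1 and Twist1 had it in 3 of 4. Of all protein-coding genes 66.8% had H3K4me3 in all 4 libraries and 28.3% in none, and among the 4642 genes with H3K27me3 in all 4 libraries 74.5% had H3K4me3 in all 4 and 14.6% in none. Averaged over the 9 genes, H3K4me3 covered 583.8, 331.1, 632.1 and 287.8 bp, which is 457.4 ± 179 bp for WT and 459.9 ± 243 bp for KO (± SD over 2 mice). The genotypes overlapped, and the higher pair was made up of 1 WT and 1 KO mouse. Those libraries, WT_407 and KO_399, also had the higher H3K4me3 background (2.23 and 2.65 reads, against 1.94 in WT_409 and 1.93 in KO_401). The part of depth in this order was not tested. Reduced to the same covered length in each library, the KO share of WT was 34.0% in place of 101%.

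Neurog2 had the most H3K4me3, 2147, 1959, 2879 and 905 bp. Upstream, every library had a peak 374 to 552 bp wide between positions -7791 and -7210 from the start site (in WT_407 at chr3:127625448-127625926), and KO_399 a further one of 315 bp beside it. Around the start site the peaks lay between positions -759 and 1404. KO_399 was the highest and KO_401 the lowest, so the genotypes did not separate. At Twist1 the mark lay on the start site, with 989, 0, 1189 and 823 bp. Neurod1 had 780, 0, 427 and 455 bp, in a peak between positions 2153 and 2738 from its start site and, in WT_407, a further one of 194 bp before the start. WT_409 was thus the library without H3K4me3 at both genes. That library also had the most H3K4me3 at the B cell markers (Cd79a, Cd79b, Pax5, Ms4a1, Vpreb1 and Il7r), with 4300 bp per gene against 1813 to 2689 bp in the others, and at the erythroid markers (Hbb-bs, Hbb-bt, Slc4a1, Klf1 and Epor), with 2835 bp against 1760 to 2240 bp. At least 1 library had the mark at 6 of 6 and 5 of 5 of these genes, and Il7r, Hbb-bs, Hbb-bt and Slc4a1 were at 0 in every library but WT_409. Not every marker followed the means. Cd79a, Cd79b and Klf1 had the most H3K4me3 in KO_399 (8305, 1989 and 6987 bp, against 7524, 1589 and 6514 bp in WT_409). Ms4a1 had its least in WT_409, at 298 bp. In H3K27me3, Pax5, Slc4a1, Klf1 and Epor were lower in both KO libraries, and Hbb-bs and Hbb-bt had none. The part of these cells in the result was not tested.

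Atoh1 was the 1 member whose H3K4me3 was lower in both KO libraries, with 653, 599, 569 and 0 bp (exact permutation p = 0.333, n = 2 each). Its 3 peaks lay between positions -1431 and -720 from the start site. Over all genes with H3K4me3 in any library, 3.54% were lower and 21.7% higher in both KO libraries, and no member was higher. By the widest H3K4me3 peak Atoh1 was again the 1 gene lower and none was higher, against 3.93% and 23.8%. At Hand1 the peak lay beyond the lower end of the gene, with 553.5 ± 186 bp for WT against 516.0 ± 154 bp for KO (± SD over 2 mice) and genotypes that overlapped. Counts of so few peaks changed when single mice were left out. Without WT_409, 3 members were lower in KO (Atoh1, Neurod1 and Hand1), and without KO_399 also 3 (Atoh1, Neurog2 and Hand1). Without WT_407, 2 were higher (Neurod1 and Twist1), and without KO_401 also 2 (Neurog2 and Twist1). Such counts could only stay or rise, because separation is easier to meet with 1 mouse fewer. The shares over all genes with a mouse left out were not counted.

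These H3K4me3 peaks were weak ones. The 25 peaks had folds of 5.05 to 10.4 by the authors' values and 14 to 40 reads at the summit, and their median percentile by q-value within a list was 15.0, the highest 35.3. All the H3K4me3 bases of the members lay under H3K27me3 of the same library, in 17 of 17 pairs of a gene and a library with the mark. The same share over all genes was not counted. In these 17 pairs H3K27me3 covered 28.4% (Neurod1, KO_399) to 98.2% (Neurog2, WT_409) of the window. Both marks covered the same bases in all 4 libraries at Neurog2 and Hand1, against 56.5% of the genes with H3K27me3 in all 4. Peaks that overlap in bulk do not show that 1 cell or 1 nucleosome holds both marks. The neural markers Map2, Tubb3, Rbfox3, Sox2, Nes and Gfap had H3K4me3 at 460.5 to 848.7 bp per gene, with 2 of 6 (Rbfox3 and Sox2) at 0 in every library, and 0 of 6 separated by genotype. The mesenchymal markers were Col1a1, Col1a2, Pdgfra, Pdgfrb, Cxcl12 and Prrx1, with H3K4me3 in at least 1 library at 6 of 6. Their mean was 871.7 and 751.5 bp per gene in WT and 1904 and 1000 bp in KO. Pdgfrb (464, 499, 1864 and 1844 bp) and Cxcl12 (910, 861, 1847 and 975 bp) were higher in both KO libraries, and none was lower. These 2 of 6 stand beside 21.7% of all genes with H3K4me3 in any library. At Col1a1, Col1a2, Pdgfra and Prrx1 the genotypes overlapped. The part of the mesenchymal markers in the H3K4me3 of Twist1 and Hand1 was not tested.

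Other tissue-restricted bHLH genes had the mark less widely. Of 30, such as the muscle factor Myod1 and the pancreas and hindbrain factor Ptf1a, 24 had H3K27me3 in any library and 22 in all 4, and 14 were lower in both KO libraries and 0 higher. The largest shares of the window over the 4 libraries were at Neurod2 (98.1%), Olig3 (64.4%), Ptf1a (57.2%) and Nhlh2 (49.7%). Neurod2, a neuronal relative of Neurod1, had 24231 bp, its whole window, in both WT libraries, and 22515 and 24072 bp in KO. The median share of the window was 20.6% in WT and 14.3% in KO. H3K4me3 lay at 15 of the 30 in any library and at 11 in all 4, with 3 lower (Tcf24, Mesp1 and Tal2) and 1 higher (Myog) in both KO libraries.

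The bHLH genes of blood cells and the E proteins carried mostly H3K4me3. Of these 19, H3K4me3 was in all 4 libraries at 19 and H3K27me3 at 4, Tal1, Mycn, Mycl and Bhlhe41, and 14 had no H3K27me3 in any library. Tal1, the stem cell and erythroid factor, had 9471 and 12386 bp of H3K27me3 in WT and 3267 and 6889 bp in KO, beside 5874 to 7574 bp of H3K4me3. These 4 genes were lower in both KO libraries. The E proteins Tcf3, Tcf4 and Tcf12, the dimer partners of the 9 factors, had H3K4me3 in every library, and 1 H3K27me3 value above 0, of 1269 bp at Tcf4 in WT_409. The list's median share of the window under H3K4me3 in WT was 14.6%, against 1.62% for the members. Usf1, Myc and Bhlhe40 had more H3K4me3 in both KO libraries.

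Genes that act on the bHLH factors often carried both marks. Of the 4 Id inhibitors 3 had H3K27me3 in all 4 libraries and 4 had H3K4me3, with Id3 the most covered (15414, 15549, 11892 and 14851 bp of H3K27me3). Id2 and Id3 were lower in both KO libraries, and Id1 had H3K27me3 in WT_409 alone, at 2532 bp. Of the 10 Hes and Hey repressors 8 had H3K27me3 in all 4 libraries and 7 were lower in both KO libraries. Hes1, the main effector of Notch, had 13878 and 14173 bp in WT and 9436 and 13248 bp in KO, and Hes6 had none. Of the 9 Notch ligands and receptors 6 had H3K27me3 in all 4 libraries and 7 were lower, with the most at the ligands Dll3 (45.5% of the window), Dll1 (35.8%) and Dll4 (26.4%). The receptor Notch2 had none. H3K4me3 was in all 4 libraries at 9 of the 10 repressors and 9 of the 9 ligands and receptors, with 1 gene, Hey1, higher in both KO libraries.

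Sox and T-box factors are other families of developmental regulators. Of 14 Sox genes 14 had H3K27me3 in all 4 libraries and 13 were lower in both KO libraries, all but Sox1, which is named after its values were seen. Of 11 T-box genes 10 had it, all but Tbx6, and 9 were lower. H3K4me3 was higher in both KO libraries at Sox18, Tbx5 and Tbx6. Their median KO shares of WT were 68.9% and 83.0%, against 81.7% for the 9 bHLH genes, and their median WT shares of the window 39.0% and 44.1%, against 78.1%. These lists were chosen with results of these data known, so the order of the families was not tested. By the covered share of the window over all 8 libraries, the genes most like the median member were Pitx1, Otx2, Foxa2, Nr2e1 and Hmx1, with a mean difference of 0.877, 1.92, 1.98, 2.23 and 2.43 percentage points. Pitx1, a hindlimb and pituitary factor, had 76.0%, 79.0%, 54.2% and 71.2% under H3K27me3, and the median member 75.1%, 79.2%, 52.5% and 70.0%.

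**Figure D4:**
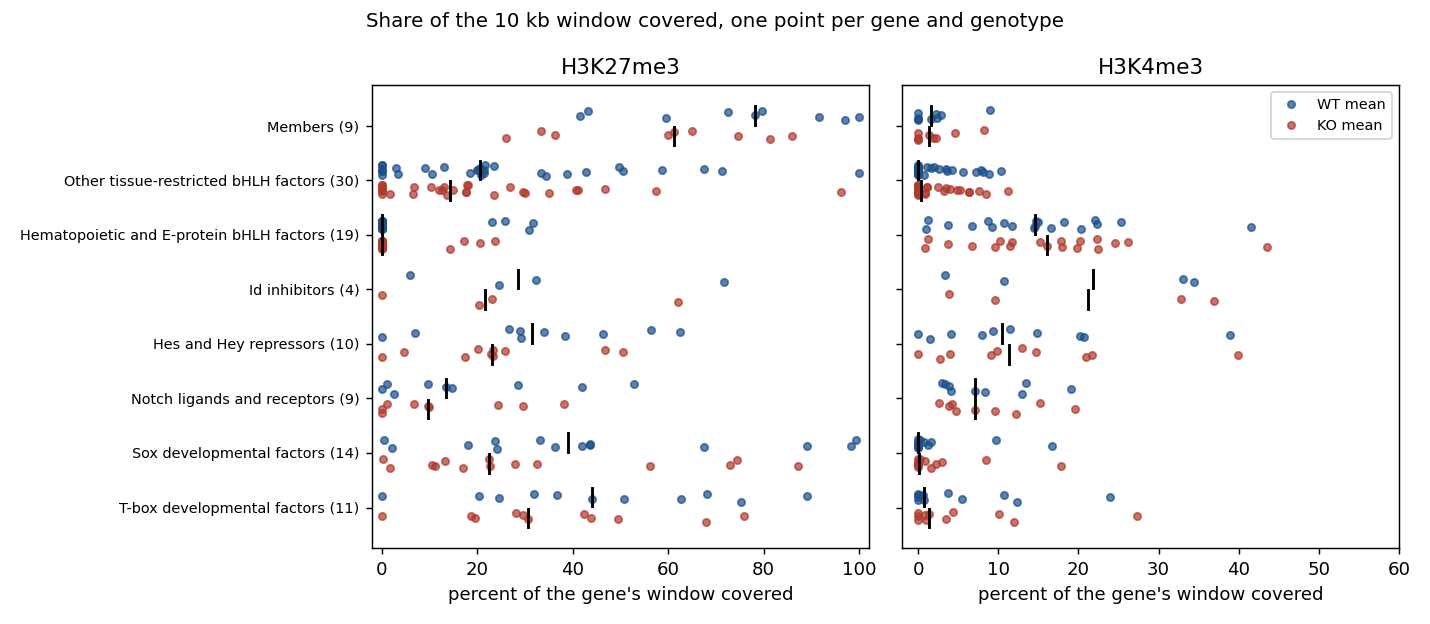
Percent of each gene's 10 kb window covered by H3K27me3 (left) and H3K4me3 (right), 1 point per gene for the mean of the WT (blue) and of the KO (red) libraries, with the number of genes in parentheses and a black bar at each median. The members reach a median of 78.1% in WT and 61.3% in KO for H3K27me3, whereas the hematopoietic and E-protein genes sit at 0% for H3K27me3 and at 14.6% in WT for H3K4me3.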

How the data were processed

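H3K27me3 and H3K4me3 were profiled by chromatin immunoprecipitation and sequencing, with 1 peak list per library (8 lists); the 4 input libraries were not analysed here. The submitters' processing notes name mm10 as the build and MACS2, Bowtie2, deepTools, FastQC, SAMtools and Trim Galore as tools; their versions and settings are not given in the sources used here. Within the deposited lists the score is 10 times −log10 q rounded down, the fold is the ratio of summit pileup to background with 1 read added to both, and p-value and q-value are deposited as −log10. Peaks touching a window by 1 bp were counted, and covered bases were clipped to it. Gene spans came from RefSeq GRCm38.p6, matched by symbol. The groups were compared per gene by a two-sided exact permutation test (n = 2 each). Pileup and background were solved from fold and p as whole reads, with a misfit of at most 0.001 in −log10 p at 100% of summits tried. Counting, separation and this recovery were tested on simulated data. The text names all 9 members, the genes with the largest or smallest shares in other lists and, where 4 or fewer, genes that lack the mark or separate by genotype. Members and lists were chosen with earlier results of these data known. Of the lists, 3 genes were taken out afterwards and are not reported here. Python 3.11.15 with numpy, pandas, scipy and matplotlib was used. Alternatives were windows of 2, 5 and 20 kb, a −log10 q of at least 10, peaks of at least 500 bp, equal numbers of peaks, equal covered length, and leaving out each mouse.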

Additional observations from a re-analysis of the deposited data

How the results depend on the processing

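The H3K27me3 results kept their direction under every setting run, summed over the 9 genes. The KO share of WT covered bases was 93.5% within 2 kb, where 4 genes were lower in both KO libraries, and it lay between 71.7% (without KO_401) and 86.5% (without KO_399) when 1 mouse was left out. With 1 mouse left out, 8 to 9 genes were lower in covered bases and 9 in widest peak. Fewer libraries make separation easier to meet, so counts of genes lower or higher could not fall when a mouse was left out. Under the settings of this section, no such count was set beside the share over all genes. When an equal covered length was kept per library, Twist1 reversed, with 1624 bp more covered and a widest peak 66.5 bp wider in KO. For H3K4me3 the same setting gave a KO share of 34.0% for covered bases and 32.4% for the widest peak, with 2 genes lower for each (Atoh1 and Neurog2). The cause was not tested. Leaving out 1 mouse gave H3K4me3 shares of 62.9% to 139% for covered bases and 60.7% to 153% for the widest peak, with 1 to 3 genes lower and 0 to 2 higher for each. Among single genes, 281 differences moved by less than the spread between mice, 34 moved by more and 2, those of Twist1, reversed from separated genotypes. Among the 281 and the 34 were 20 differences that changed sign, all in H3K4me3 and with genotypes that overlapped. Joining peaks over 3 kb was added after the data were seen. No paired analysis was possible because the WT and KO mice share no numbers. The fold filter hides weaker peaks, and the number of mice keeps every exact p at or above 0.333.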
